A study of Mus musculus with 9 samples.

Results

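The strongest peaks of a control probe set are described here: the intervals that LacZ probes retrieved from mouse germ cell chromatin with high enrichment in every replicate, and that the Gm4665 probes did not list. An interval of the LacZ list on chromosomes 1 to 19 was a member when the lowest of its 3 fold enrichments over input was 15 or more and no interval of the Gm4665 list overlapped it by 1 bp. Of 9213 autosomal LacZ peaks, 1095 (11.9%) had a fold of 15 or more in all 3 replicates, and 1055 (11.5%) were left after 40 that overlapped a Gm4665 peak were set aside. Replicate 2 set this number: with replicates 1 and 3 alone the same minimum gave 2353 peaks, against 1056 without replicate 1 and 1163 without replicate 3. Lack of overlap was common in the whole list: 8869 of all 9213 LacZ peaks had none, as had 7814 of the 8118 below the minimum. The folds and the overlap chose the members, so both are given as a description, with no test.

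The series set out to map chromatin bound by a long noncoding RNA, Gm4665, in the male germ line. All 9 samples were germ cells isolated from testes of wild-type mice of the outbred ICR strain at postnatal day 35, and they form 3 groups of 3: chromatin retrieved with Gm4665 probes, chromatin retrieved with LacZ probes, and input DNA. No allele or treatment separates the groups, only the probe set. The sample titles name the captured RNA LncRNA-20 and the protocols name it Gm4665, and no label equates these names. Nothing in the labels ties a replicate to its own animals or cell preparation, so the spread between replicates may be technical.

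In this kind of capture, biotinylated antisense oligonucleotides are hybridised to cross-linked, sonicated chromatin, and streptavidin pulls down whatever the probes bind together with the attached DNA. LacZ is the bacterial beta-galactosidase gene and is not part of the mouse genome, so a LacZ probe set is the usual control for DNA that is retrieved without the intended RNA. The probe sequences and the reads were not used here, and what held the DNA of each peak was not tested.

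The largest local group of members lay in the major urinary protein (Mup) gene cluster, and 3 windows from it are printed first because they show how alike the retrieved copies are. Each window is the RefSeq promoter of an annotated start in GRCm38.p6, from 250 bases before to 50 after it, on the plus strand, and each holds the summit of a LacZ peak. The first, chr4:61440339-61440638, is a start of Mup-ps12 on the side of Mup15, under a member whose lowest fold was 22.3. The second, chr4:61520113-61520412, is another annotated start of Mup-ps12, inside that gene and beside Mup16, under a member whose lowest fold was 22.5. The third, chr4:61782914-61783213, is a start of Mup-ps16 beside Mup19, under a LacZ peak whose lowest fold of 8.64 kept it below the minimum. Capitals mark the 21 bases centred on the peak summit.
Window beside Mup15: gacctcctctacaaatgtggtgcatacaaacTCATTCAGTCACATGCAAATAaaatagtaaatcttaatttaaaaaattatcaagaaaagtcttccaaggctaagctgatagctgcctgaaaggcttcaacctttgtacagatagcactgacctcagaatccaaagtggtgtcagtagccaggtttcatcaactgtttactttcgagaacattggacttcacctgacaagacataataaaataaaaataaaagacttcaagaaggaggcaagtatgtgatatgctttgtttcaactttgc
Window beside Mup16: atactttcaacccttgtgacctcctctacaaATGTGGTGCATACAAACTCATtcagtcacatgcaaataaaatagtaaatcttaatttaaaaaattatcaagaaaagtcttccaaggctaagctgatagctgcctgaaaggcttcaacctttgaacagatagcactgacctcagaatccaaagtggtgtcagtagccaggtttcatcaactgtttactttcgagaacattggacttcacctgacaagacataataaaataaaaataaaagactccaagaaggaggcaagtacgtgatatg
Window beside Mup19: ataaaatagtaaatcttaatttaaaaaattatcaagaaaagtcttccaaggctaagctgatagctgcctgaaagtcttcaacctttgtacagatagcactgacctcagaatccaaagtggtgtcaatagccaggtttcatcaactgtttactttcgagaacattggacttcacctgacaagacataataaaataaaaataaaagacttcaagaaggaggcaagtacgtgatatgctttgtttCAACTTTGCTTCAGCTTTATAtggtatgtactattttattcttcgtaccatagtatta
The first and second windows were 98.9% identical over 283 aligned columns, the windows beside Mup15 and Mup19 98.8% over 251, and those beside Mup16 and Mup19 98.3% over 234. Sequence this alike can be shared out among copies by an aligner, so the fold of a single Mup copy is uncertain.

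Outside the Mup cluster, promoter windows of 6 genes held a member's summit. The strongest of them and the one richest in CpG are shown, since they are single-gene starts and carry different sequence. Il1f9 encodes the cytokine interleukin 36 gamma, and its window is chr2:24186226-24186525 on the plus strand. Rrp1b encodes a ribosomal RNA processing protein, its window is chr17:32035912-32036211 on the plus strand, and the gene starts beside Hsf2bp, a partner of BRCA2 in meiotic recombination. Capitals again mark the 21 bases centred on the summit; the Il1f9 window ends at its summit, so only the first part of them is shown there.
Il1f9: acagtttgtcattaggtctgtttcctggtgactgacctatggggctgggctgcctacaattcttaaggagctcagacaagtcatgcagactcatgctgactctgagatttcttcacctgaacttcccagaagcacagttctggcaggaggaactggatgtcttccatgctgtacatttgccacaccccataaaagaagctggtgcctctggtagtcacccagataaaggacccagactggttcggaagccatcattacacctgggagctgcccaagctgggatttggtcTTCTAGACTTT
Rrp1b: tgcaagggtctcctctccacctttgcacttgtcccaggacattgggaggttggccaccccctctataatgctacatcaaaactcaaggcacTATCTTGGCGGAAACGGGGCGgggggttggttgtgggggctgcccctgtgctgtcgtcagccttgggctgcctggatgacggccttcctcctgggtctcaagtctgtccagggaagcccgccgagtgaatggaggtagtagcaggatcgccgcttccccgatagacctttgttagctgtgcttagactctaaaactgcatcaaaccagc
The Il1f9 window had a GC content of 49.7% and 1 CpG, and the Rrp1b window 57.3% and 10. Their best local alignment to the first Mup window covered 10 and 33 columns, against 234 to 283 between the Mup windows.

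Fold enrichment, the authors' MACS2 value for a replicate over input, differed between the LacZ replicates at the same peaks. Over the 1055 members the median was 48.4 in replicate 1, 19.1 in replicate 2 and 26.0 in replicate 3 (mean 31.1 ± 15.3, SD, n = 3). Over the 8118 LacZ peaks below the minimum it was 21.4, 7.73 and 10.1. Replicate 1 was the highest in 1030 of the members (97.6%) and replicate 2 the lowest in 924 (87.6%), so the lowest fold that admitted a peak was mostly that of replicate 2. The median ratio of replicate 1 to replicate 2 was 2.38 among members and 2.65 below the minimum. It fell from 2.76 in LacZ peaks with a lowest fold under 5 to 1.96 in the 86 with 30 or more, where the high replicate 2 values that the grouping selects also lower it.

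**Figure D1:**
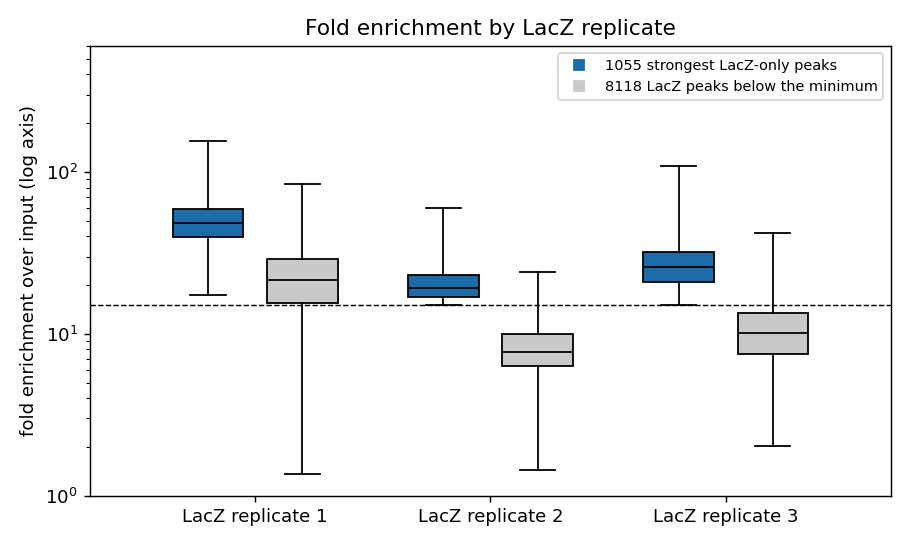
Fold enrichment over input (log axis) in LacZ replicates 1 to 3, for the 1055 members (blue) and the 8118 LacZ peaks below the minimum (grey). Boxes span the quartiles, the line is the median, whiskers reach the lowest and highest peak and the dashed line is the minimum of 15; replicate 1 lies highest in both sets, with a median of 48.4 in the members.

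Peaks were also chosen on 2 replicates and read in the replicate left out. Those that reached 15 there are the same 1055 members each time. The shares therefore describe the rule replicate by replicate and are no separate support for it. Peaks with a fold of 15 or more in replicates 2 and 3 and no Gm4665 overlap numbered 1056, and 99.9% of them reached 15 in replicate 1, as did 79.8% of all LacZ peaks. Of 1163 chosen on replicates 1 and 2, 90.7% reached 15 in replicate 3, against 26.7% of the list. Of 2353 chosen on replicates 1 and 3, 44.8% reached 15 in replicate 2, against 13.1% of the list. The median percentile of the chosen peaks in the replicate read was 92.1, 92.5 and 85.0 for replicates 1, 3 and 2. The intervals themselves were listed jointly over the replicates, so the choice of intervals was not independent.

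**Figure D2:**
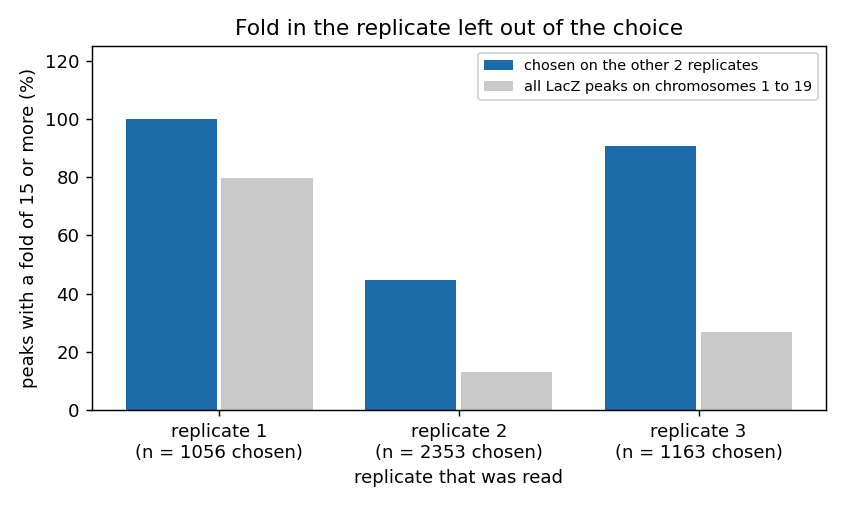
Share of peaks (%) with a fold of 15 or more in the replicate that was left out of the choice, for peaks chosen on the other replicates (blue) and for all 9213 autosomal LacZ peaks (grey). The chosen peaks stand above the list in each replicate, at 99.9%, 44.8% and 90.7% for replicates 1, 2 and 3.

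At the head of the list stood a peak between genes. At chr3:55005368-55008379 the folds were 126, 60.1 and 108 in replicates 1, 2 and 3 (mean 98.2 ± 34.2, SD, n = 3), and the nearest protein-coding gene, 37.1 kb away, was Ccna1, the cyclin A1 gene of male meiosis. At chr2:173706767-173708568, 4.58 kb from the endosomal GTPase gene Rab22a, they were 71.6, 55.6 and 80.6, and replicate 3 was the highest. In Ift88, whose product carries cargo along cilia and the forming sperm tail, the peak at chr14:57494900-57497934 had 99.4, 53.3 and 74.4. These 3 peaks had the highest values of replicate 2 among the members.

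The peak in Preb, which encodes an exit-site protein of the endoplasmic reticulum, combined the highest replicate 1 fold with the greatest width. At chr5:30954510-30960061, over 5552 bp, its folds were 156, 49.9 and 80.9 (mean 95.5 ± 54.4, SD, n = 3). Cacna1a, a neuronal calcium channel gene, held a peak with 71.3, 49.6 and 57.8. Colq, which encodes the collagen tail of acetylcholinesterase, held the strongest peak with its midpoint at a gene end, at chr14:31576227-31578016, with 80.0, 43.6 and 58.1 (mean 60.6 ± 18.3, SD, n = 3). Its midpoint also lay within 2 kb of an end of LOC102639719. In Galnt18, a gene of the mucin-type glycosyltransferase family, the folds were 80.3, 42.7 and 43.3. Grip1, a scaffold gene of glutamate receptors, had 87.6, 41.8 and 53.6, and Gm41147, a predicted gene, had 79.2, 41.8 and 57.0. The tenth peak, at chr2:171125341-171127267, 246 kb from Dok5, had 79.9, 41.4 and 47.2. Replicate 2 was the lowest at each of these 10 peaks, and replicate 1 the highest at 9.

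**Figure D3:**
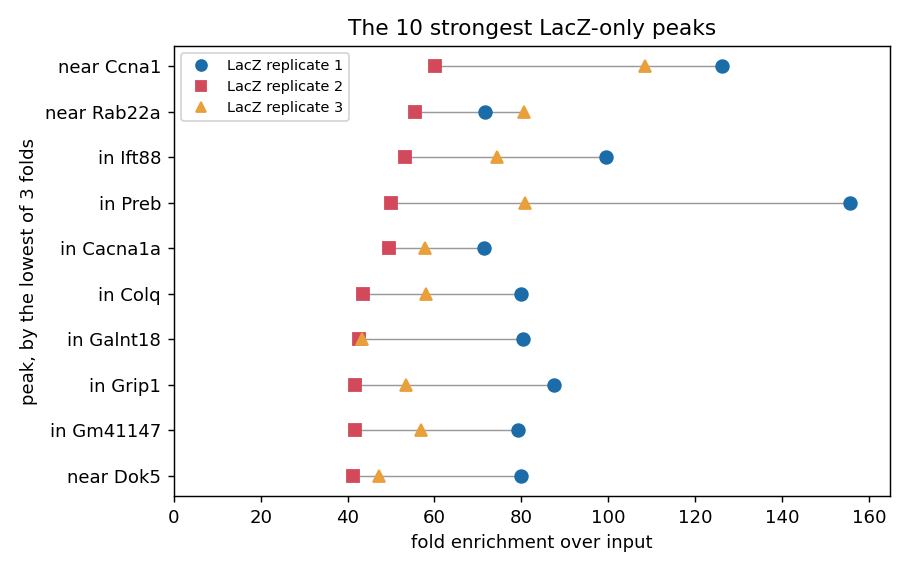
Fold enrichment over input in LacZ replicate 1 (circles), replicate 2 (squares) and replicate 3 (triangles) at the 10 members with the highest lowest fold, named by the gene they lie in or the nearest protein-coding gene. Replicate 2 is the leftmost point in every row, from 41.4 near Dok5 to 60.1 near Ccna1.

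At gene ends, defined as 2 kb to either side of an annotated start or end, the peaks after Colq were at a predicted gene, a pseudogene and a lncRNA gene. Gm51900 had folds of 40.5, 40.7 and 44.6, the rare case in which replicate 1 was the lowest. Gm13198, whose peak also lies in Ccdc3, had 119, 40.5 and 74.5, and Gm40677 had 89.0, 39.1 and 72.3. Nrip1, a corepressor gene of nuclear receptors, had 106, 34.6 and 60.0. The peak at the ends of Prss33 and Prss41, neighbouring serine protease genes, had 73.0, 34.1 and 46.6, and a peak at another protease gene, Prss48, had 50.9, 31.8 and 47.0. At Ppp2r2b, which encodes a regulatory subunit of protein phosphatase 2A, the peak was shared with Gm52345 and Gm41712 and had 77.2, 33.6 and 49.02. LOC115488162, inside Gfod1, had 62.4, 31.4 and 35.2, and Il1f9 had 55.0, 30.5 and 38.1. The 3 replicates of Gm51900 were close together, whereas those of Gm13198 and Nrip1 differed by factors of 2.93 and 3.06.

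Agreement between replicates varied from near identity to several-fold. Dclk3, a kinase gene, had folds of 21.2, 20.9 and 20.4 (mean 20.8 ± 0.430, SD, n = 3), the smallest spread. A peak between genes at chr2:131579210-131580355 had 28.7, 28.6 and 31.1, the Arf GTPase-activating protein gene Adap1 had 17.6, 16.9 and 18.8, and a peak in Pus1, a pseudouridine synthase gene, and Gm15559 had 25.3, 22.9 and 22.7. At the other extreme, a peak at chr18:67258257-67259860 had 107, 18.6 and 32.9, a ratio of 5.73 between the largest and the smallest. Peaks at chr5:46898107-46899583 and chr10:100849612-100851195 had ratios of 4.74 and 4.73, AW554918 had 4.55 and Lrig1, a negative regulator of growth factor receptors, had 4.52. Replicate 1 was the lowest in only 2 members, Gm51900 and Epb41l2, a membrane skeleton gene with 32.5, 43.6 and 60.0.

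The background that the deposited pileup implies was read beside the folds. No label names the replicate of the pileup, but in the LacZ list its values follow replicate 1. The ratio of replicate 1 fold to pileup (with 1 added) was within 0.0005 of its maximum, as a fraction, in 558 members (52.9%). The same held for 52.3% of LacZ peaks below the minimum. That maximum corresponds to the lowest background in the list, called the floor here. The implied background of a peak is that maximum divided by its own ratio. Any constant added to the background before the fold was taken is included, so true multiples of the floor may be larger. The implied background was more than 2 times the floor in 20 members (1.90%) and in 2.76% of the peaks below the minimum. All 5 least-spread members had an implied background of 1.65 to 2.06 times the floor, and that of Epb41l2 was 2.34 times; the part of background in the spread was not tested. The highest, 2.89 times, was at a peak at Fcgr3, an Fc receptor gene, with folds of 37.1, 17.3 and 42.1.

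That Fcgr3 peak, chr1:171063721-171064785, also had 4 transfer RNA genes within 2 kb of its midpoint and covered the only one of 919 autosomal miRNA hairpins that lay under a member. The mature arms of miR-6546, from RefSeq in GRCm38.p6 on the minus strand, are shown because no other member carried a miRNA. Capitals mark the seed, bases 2 to 8.
mmu-miR-6546-5p: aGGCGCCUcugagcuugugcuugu
mmu-miR-6546-3p: gAGCGAAGcccaagcgccaga
The summit of the peak, at 171063958, lay outside the hairpin, which starts at 171064591.

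Width went with fold, which was described and not tested, since peaks are not replicates. The members' median width was 1367 bp (493 to 5552), against 813 bp below the minimum, and the median rose with the lowest fold from 640 bp under 5 to 1875 bp at 30 or more. After Preb the widest were in Kif26b, a kinesin family gene, with 3379 bp, Arhgap23 with 3253 bp, Ift88 with 3035 bp and the interval near Ccna1 with 3012 bp. The peaks in Kif26b and Arhgap23 joined 4 summits each, with lowest folds of 17.8 and 21.02. In all, 36 members (3.41%) had more than 1 summit, against 1.02% below the minimum.

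By position, the midpoints of 183 members (17.3%, 95% Wilson interval 15.2% to 19.7%, counting error only) lay within 2 kb of a gene end, 506 (48.0%, 45.0% to 51.0%) in the rest of a gene and 366 (34.7%, 31.9% to 37.6%) between genes. Of LacZ peaks below the minimum, 15.7% (14.9% to 16.5%) lay at gene ends, and the intervals overlap. Of 6698 Gm4665 peaks chosen with the same fold minimum and no LacZ overlap, 13.1% (12.3% to 14.0%) did, and 41.3% (40.1% to 42.5%) lay between genes. Those intervals do not overlap with the members', but peaks are not replicates and each list is 1 joint call, so the difference was not tested over samples. Among the 183, a protein-coding gene was at the end for 101, a lncRNA gene but no coding gene for 52, pseudogenes alone for 27 and other genes for 3. The coding share, 55.2%, stood beside 52.3% below the minimum and 49.4% in the Gm4665 set. Members between genes had their nearest protein-coding gene at a median of 72.2 kb, and for 156 of 366 it was over 100 kb away.

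**Figure D4:**
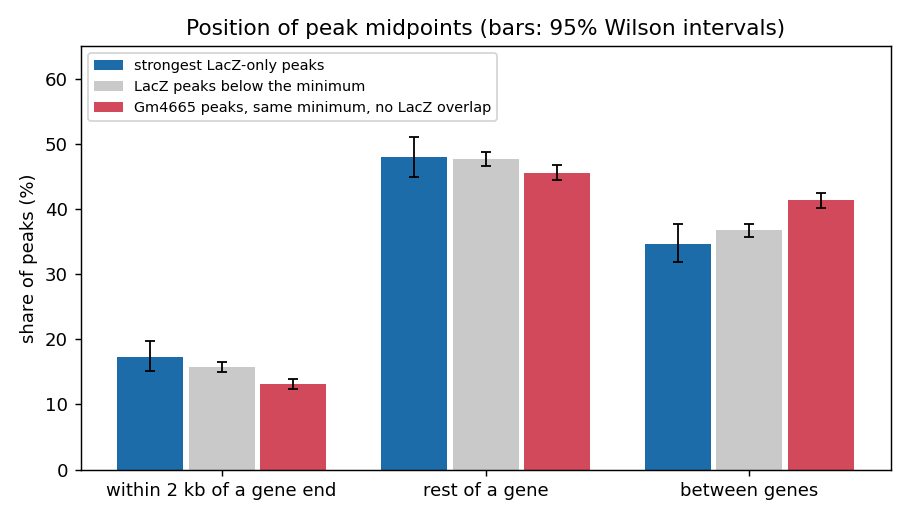
Share of peak midpoints (%) within 2 kb of a gene end, in the rest of a gene and between genes, for members (blue), LacZ peaks below the minimum (grey) and Gm4665 peaks with the same minimum and no LacZ overlap (red). Error bars are 95% Wilson intervals; at gene ends the shares are 17.3%, 15.7% and 13.1%.

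Members were dense in the Mup cluster, although it held only 1.80% of them. Major urinary proteins are lipocalins made mainly in the liver and excreted in urine, where they carry pheromones, and their genes form a tandem array on chromosome 4 with many near-identical copies and pseudogenes. From 59956804 to 62150841, a span of 2194 kb with 44 Mup symbols, the LacZ list held 28 peaks, of which 19 (67.9%) were members and 2 more met the fold minimum but overlapped a Gm4665 peak. Over all autosomal LacZ peaks 11.5% were members. Members numbered 8.66 per Mb in the cluster and 0.439 per Mb over chromosomes 1 to 19. LacZ peaks of any fold were dense there too, at 12.8 per Mb against 3.83 per Mb over these chromosomes. The cluster was singled out after its values were seen, so these figures are a description.

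At Mup genes and pseudogenes alike, LacZ peaks had strong replicate 1 folds. Folds of the 19 members ran from 27.1 to 85.4 in replicate 1 (median 59.7), from 15.5 to 30.5 in replicate 2 (median 20.9) and from 21.9 to 45.0 in replicate 3 (median 33.4). The highest mean was in Mup-ps10, with 85.4, 20.9 and 40.9 (mean 49.1 ± 33.0, SD, n = 3). The lowest was at Mup9, with 27.1, 19.6 and 21.9 (mean 22.9 ± 3.84, SD, n = 3), where the implied background was 2.06 times the floor. Mup12, with 64.7, 29.5 and 41.5, and Mup7, with 61.6, 23.4 and 37.5, lay between them. Replicate 1 was the highest at each of these 4, as in the members at large. The median implied background of the 19 was 1.03 times the floor, and 3 of them exceeded 1.5 times.

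Of 22 numbered Mup genes, 12 had a member with its midpoint in the gene or within 2 kb of it: Mup1, Mup7, Mup8, Mup9, Mup12, Mup13, Mup14, Mup15, Mup16, Mup17, Mup18 and Mup22. A further 4 had only a weaker LacZ peak, so that 16 had one of either kind. At Mup10 the folds were 32.2, 14.1 and 37.5, and at Mup11 40.9, 13.6 and 20.2; both missed the minimum in replicate 2 alone. Mup19 had 39.7, 8.64 and 17.5, and the stronger of 2 peaks in Mup5 had 35.8, 7.73 and 11.1. Of the 22 symbols named as Mup pseudogenes, 8 had a member. Among these, RefSeq lists Mup-ps12 and Mup-ps16 as protein-coding and Mup-ps15 as a lncRNA gene. Mup-ps8 and Gm21286 had peaks that met the minimum, with 83.1, 27.3 and 38.6 and with 63.7, 22.9 and 36.0, and were left out because a Gm4665 peak touched them.

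**Figure D5:**
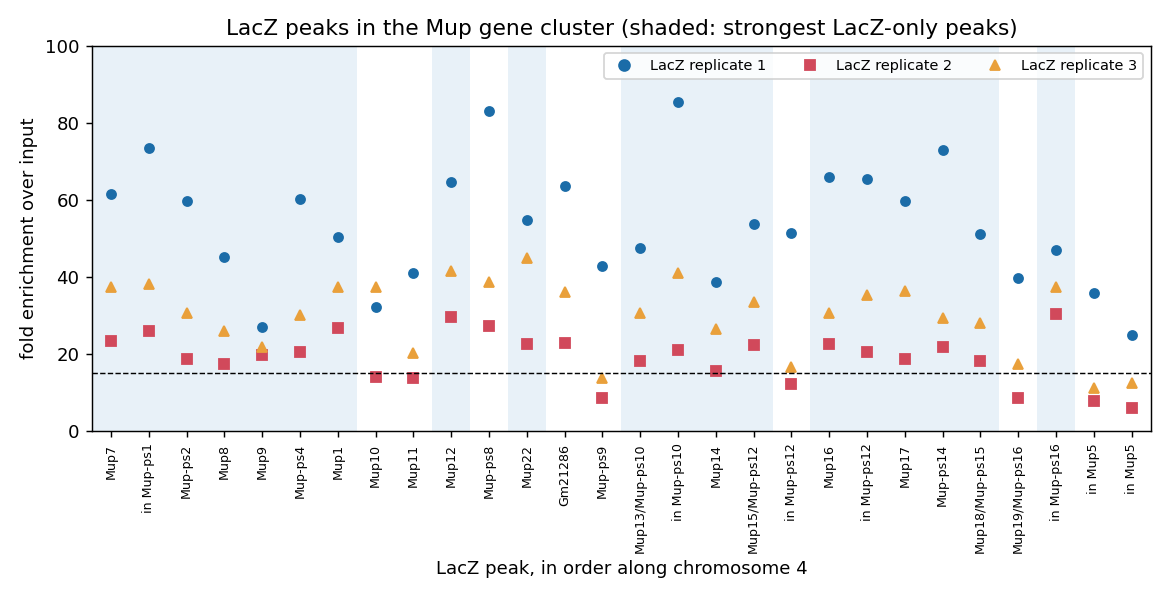
Fold enrichment over input at the 28 LacZ peaks of the Mup cluster, in order along chromosome 4, in LacZ replicate 1 (circles), 2 (squares) and 3 (triangles), with members shaded and the minimum of 15 dashed. Replicate 2 of the members lies between 15.5 and 30.5 and replicate 1 between 27.1 and 85.4.

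The peaks repeated with the array. At the 6 numbered genes with an annotated start in the promoter table and a member nearest it, the summit lay 557 to 793 bp upstream of the start (median 670 bp). With the weaker peaks included, the 9 such genes gave 557 to 942 bp (median 669 bp). The second peak of a repeat lay further on: 9 pairs of neighbouring summits were under 20 kb apart, at 11.0 to 14.1 kb (median 13.9 kb), and 7 of them were 13 to 15 kb apart. The first peak of a pair was at a numbered gene and the second at or in a pseudogene symbol or Gm21286. The mean fold was higher at the second peak in 8 of the 9 pairs and the lowest fold in 6, and both peaks were members in 5.

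Promoter windows of the Mup genes were aligned with that of Mup7, to see how alike the copies with and without a peak are. Over 163 to 213 aligned columns, the windows of Mup9, Mup14, Mup15, Mup17 and Mup18, which have a member, were 97.1% to 98.2% identical to it. Those of Mup10, Mup11 and Mup19, which have a weaker LacZ peak, were 96.3% to 98.5% identical. Of the 5 windows with no LacZ peak within 2 kb, that of Mup2 was 97.6% identical, while Mup6 had 89.7%, Mup4 89.5%, Mup3 85.0% and Mup21 83.6%. The 4 least alike windows belonged to genes without a LacZ peak within 2 kb, and so did that of Mup2. Whether reads from the close copies were counted at one another was not tested.

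The Gm4665 list also had peaks in the cluster, 15 in all, and 2 of them (13.3%) reached a fold of 15 in all 3 replicates, near the 18.0% of that list over the autosomes. These 2, at chr4:61929129-61930201 and chr4:62001403-62002484, lay 73514 and 145788 bp from the nearest LacZ peak. The lists were normalized separately, so their folds are not compared as amounts.

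No other gene family had as many members at its ends. Symbols were grouped by their leading letters into 314 families of 10 or more genes. Placeholder symbols that start with Gm or LOC are not among these families. Of the 45 Mup symbols, which include Mup-ps22 on chromosome 11, 18 (40%) had a member at a gene end, and these shared 15 peaks. Next came the Prss serine protease genes with 3 of 39, on 2 peaks. Large families had few: 2 of 1419 olfactory receptor (Olfr) genes and 2 of 616 vomeronasal receptor (Vmn) genes. Over all genes, 215 of 46710 (0.460%) had a member at an end, and 1692 (3.62%) had any LacZ peak there.

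Members were otherwise scattered. Another member lay within 100 kb of 142 (13.5%), and 913 stood alone at that distance. Of the 6 chains of 3 or more, the largest, with 6 and 4 members, and 2 with 3 were in the Mup cluster. The other 2, of 3 members each, lay at Plekhh2 and Lrpprc on chromosome 17 and at Agbl5 and Preb on chromosome 5. Chromosome 4 had the highest density, 0.587 members per Mb (90 members), which was 0.470 outside the Mup cluster, and chromosome 8 had the lowest, 0.325.

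Genes with the most members besides Mup-ps12, which had 3, were long. Rbfox1, a splicing regulator gene of 1528 kb, held 4, with replicate 2 folds of 15.5 to 34.5. The strongest, at chr16:7038738-7040999, had 63.2, 34.5 and 46.7 in replicates 1, 2 and 3. Camta1, a transcription activator gene of 802 kb, held 3, Macrod2, an ADP-ribose hydrolase gene of 1998 kb, held 3, and the immunoglobulin heavy chain locus Igh, of 2751 kb, held 3. Per length these came to 2.62 members per Mb in Rbfox1, 3.74 in Camta1, 1.502 in Macrod2 and 1.09 in Igh, against 30.6 in Mup-ps12.

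Gene lists of the germ line and of common pathways held a few members, at shares read against those over all genes, noncoding ones included. Of 20556 protein-coding genes alone, 111 had a member at an end. Within 11 lists, 3 genes (0.636% of the listed genes, beside 0.460% of all genes) had a member at an end: Hsf2bp of 49 meiotic prophase genes, Nrip1 of 48 nuclear receptors and corepressors, and Wnt4, a secreted ligand, of 58 signalling genes. The Hsf2bp peak is the one on the Rrp1b start, with folds of 48.4, 20.1 and 16.4, and the Wnt4 peak had 35.4, 17.4 and 18.5. No member lay at an end of 28 spermatogonial, 61 spermiogenesis, 26 piRNA pathway, 52 chromatin regulator, 80 ribosomal protein or 41 apoptosis genes, nor of 21 Sertoli cell genes or 20 genes of other somatic testis cells. A share of 0.460% over all genes leaves few or none in a list of this size, so nothing is read from the counts of 0.

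Counting the whole gene with its 2 kb flanks, 733 of 46710 genes (1.57%) had a member, and the lists again held a few each. Kit, the receptor of spermatogonial differentiation, had folds of 59.7, 20.9 and 31.9. Zbtb16, a transcription factor gene of spermatogonial stem cells, had 76.0, 19.003 and 39.3. These were 2 of 28 spermatogonial genes (7.14%). Gene length was not taken into account in these shares. Zpbp, which encodes an acrosomal protein, had 62.0, 17.8 and 32.0 as the only one of 61 spermiogenesis genes. Tdrd12, of transposon silencing by piRNAs, had 51.1, 21.4 and 24.9 as the only one of 26. Among 52 chromatin regulator genes, Smarca2, a chromatin remodelling ATPase gene, had 50.4, 31.4 and 36.9, and Kdm4d, a histone demethylase gene, had 37.8, 15.5 and 20.8. Lrp5 and Smad3 joined Wnt4 among 58 signalling genes. The Sertoli, other somatic, ribosomal protein and apoptosis lists had none. Wherever folds are given here for these lists, replicate 1 was the highest.

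Few members covered a start site. Of 31396 RefSeq promoter windows, 46 (0.147%) were overlapped by members and 237 (0.755%) by any LacZ peak. The 46 lay under 36 members (3.41% of members, against 2.02% of LacZ peaks below the minimum). Wider peaks reach more windows, and the median width was 1367 bp in members against 813 bp below the minimum. The summit, a single position, lay in a window for 0.758% of members and 0.653% of peaks below the minimum. The 46 windows belonged to 37 genes, 8 of them Mup symbols. The other 29 included, named after their values were seen, Zp3, the egg coat gene that binds sperm, with folds of 34.5, 22.3 and 19.5, Rbm15, an RNA-binding protein gene of RNA methylation, with 28.2, 23.4 and 19.5, and Lysmd4 with 55.3, 29.9 and 44.7. At Dclk1, a doublecortin-like kinase gene, the summit fell on the annotated start, with folds of 43.7, 23.4 and 29.5.

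Base composition was read from a single window per gene, and over these 37 genes it differed with and without the Mup copies. Median GC content was 48% over the 37 genes and 51.7% over the 29 others, against 53% over 25748 genes with a promoter window. At least 5 CpG were present in 43.2% of the 37 and 55.2% of the 29, against 62.2% of all. On either strand, CCAAT was found in 56.8% of the 37 and 51.7% of the 29, against 37.8% of all genes and 37.9% of those under weaker LacZ peaks. TATAAA was found in 5.41% and 3.45%, against 14.2%, and GGGCGG in 24.3% and 31.0%, against 36.3%. In the 174 genes under weaker LacZ peaks, TATAAA was found in 7.47% and GGGCGG in 38.5%. Median GC content of those 174 was 54%, and 67.2% had at least 5 CpG. Further windows of Mup-ps12 and Mup-ps15 under members also held TATAAA and were not counted. The Mup windows are near copies of each other and are not independent, and with 29 other genes a single gene moves a share by several points. More motifs were searched than are given here. GGTCA, for example, was found in 35.1% of the 37 and 41.4% of the 29, against 40.4% of all genes. All are matches of letters, not bound sites.

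Distance to the Gm4665 list was measured next, as the rule used only overlap. The median distance to the nearest Gm4665 peak was 21292 bp for members and 19972 bp for the LacZ peaks below the minimum without overlap, and 33 members (3.13%) had one within 1 kb, against 3.84%. The closest, at Gm8488, was 6 bp from a Gm4665 peak with folds of 9.55, 7.48 and 7.81, while its own LacZ folds were 67.5, 32.4 and 27.5. The member nearest the Gm4665 gene on chromosome 9, at chr9:117853894-117855433 with folds of 48.1, 24.1 and 28.3, was 2667792 bp away.

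The overlap rule removed some of the strongest LacZ peaks, at shares near those of most weaker ones. By lowest fold, overlap was found in 2.33% at 30 or more, 3.12% from 20 to under 30 and 4.12% from 15 to under 20. Below the minimum it was found in 3.37% from 10 to under 15, 3.25% from 5 to under 10 and 8.30% under 5. At chr2:22738521-22741048 the LacZ folds were 121, 60.0 and 83.6, a lowest fold close to that of the leading member, but a Gm4665 peak with 8.63, 6.44 and 5.76 lay inside it. In Iqgap1, a cytoskeletal scaffold gene, the LacZ folds were 50.3, 32.7 and 36.1 and those of the overlapping Gm4665 peak 32.2, 24.7 and 31.5. At Mup-ps8 the overlap was 49 bp. An interval without overlap shows only that the Gm4665 list had no peak there.

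The minimum of 15 fell in a dense part of the list. Just inside it, 44 members tied at a lowest fold of 15.0019, in replicate 2, with replicate 1 folds of 17.8 to 71.0 (median 37.5). They include the peaks at Olfr648, in Emc7 and at chr9:25412994-25413910, with replicate 1 folds of 26.5, 36.3 and 24.7. Just outside, 5 peaks without Gm4665 overlap tied at 14.9947, with replicate 1 folds of 16.0 to 54.6 (median 36.3). They include the peaks at Gm4607, chr2:54129329-54130761 and chr7:140634714-140635482, with 50.7, 54.6 and 36.3. The lowest fold was from 10 to under 15 in 1808 LacZ peaks and from 15 to under 20 in 656, so a small shift of the minimum moves many peaks across it.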

How the data were processed

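The series holds 9 samples in 3 groups of 3: Gm4665 probes, LacZ probes and input. Analysis started from 2 deposited peak lists, made with MACS2 per the file names on mm10 per the submitters' processing notes; for the aligner, the MACS2 version and settings and the joining of replicates, nothing is given in the sources used here. Per the file headers, the authors give each interval a linear fold enrichment (a ratio) over input for each replicate, and a deposited pileup signal (summit coverage by reads), used only for the implied background. Library depth is unknown from these files, and input entered only as the denominator of the fold.

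Repeated intervals (165 LacZ and 649 Gm4665 rows) were merged, keeping each replicate's highest fold. Midpoints were placed within 2 kb of the ends of 46710 autosomal RefSeq genes (GRCm38.p6), then in the rest of a gene, then between genes; 328 gene entries starting below 3 Mb were left out. Coordinates are 1-based. Promoter windows, miRNAs and their sequences came from RefSeq tables of that build. Identity was taken from the best local alignment (biopython 1.88; match 2, mismatch -3, gap open -5, gap extension -2). Tables were handled with pandas 2.3.3 and numpy 2.4.6 in python 3.11.15, and interval steps were tested on simulated data. Families and the Mup cluster were examined after their values were seen. Folds chose the members, and positions come from 1 joint list, so no test was run. Numbers of samples limit precision, and Wilson intervals cover counting error only.

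Named were the 10 strongest members by lowest fold and the 10 strongest at gene ends, the 5 widest, the 5 with the largest and 5 with the smallest ratio between replicates, the 5 genes with most members, up to 4 genes per list with a member at an end or else up to 2 with one in the gene, the 3 peaks on either side of the minimum, the member nearest Gm4665 and the 3 strongest peaks left out for overlap. Other names were chosen after their values were seen. The members and lists were chosen with earlier results of these data known. Alternatives varied the fold minimum, the joining of repeats, the overlap rule, the replicates used, the gene-end window and the genes used.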

Additional observations from a re-analysis of the deposited data

How the results depend on the processing

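The number of members, 1055, follows the rule: it was 1832 with a minimum of 12, 426 with a minimum of 20, and 1056 to 2353 when 1 replicate was left out, the highest without replicate 2. The share at gene ends, 17.3%, was 10.8% with a 1 kb window, 31.1% with 5 kb, 9.57% with protein-coding genes only and 21.9% when any overlap of the peak with the window counted, since less or more sequence was searched; leaving out a replicate gave 17.1% to 17.3%. Genes with a member at an end, 215, were 127 with 1 kb, 439 with 5 kb and 111 with protein-coding genes only. Of the 84 values recomputed under alternatives, 20 moved by more than the spread or counting interval used, or by over 1.5 times for a count. Without the Mup cluster, an alternative chosen after seeing the data, there were 1036 members, 16.2% at gene ends, and 197 genes. Median width, the share with a neighbour within 100 kb and the ratio of replicate 1 to replicate 2 also moved with the fold minimum or without replicate 2. No paired analysis was possible because no result comes from a test, and the folds of the Gm4665 probes are not given at these intervals. Depth is not known from these files, so a position without a listed peak is not shown to lack signal.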
